A study of Capra hircus with 27 samples.

Results

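The genes described here are those whose mean level in goats living at 3000 m lay beyond the means of the populations at 600 m and at 2000 m, in the same direction in heart, lung and skeletal muscle. Levels were taken as log2(FPKM + 1), where FPKM is the number of fragments of a gene relative to its length and to the total mapped in that library. Candidates had an ID starting with GOAT_, a mean above 0.5 FPKM in each tissue and tissue means within 3 log2 units of each other, which left 9602 of 22131 genes. For each candidate and tissue, the up value was the 3000 m mean minus the larger of the other means, and the down value was the smaller of the other means minus the 3000 m mean. The score was the smallest of the 3 tissue values, and the 50 genes of highest up score and the 50 of highest down score, 100 in all, are called the up and down members. The values of 3000 m against the other populations therefore chose the members and are given as descriptions. Where members called on these contrasts are counted below, the choice favoured such calls and the counts are not read as a test.

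RNA sequencing covered 27 libraries, with 3 each of heart, lung and muscle from indigenous goats (Capra hircus) of Ya'an (600 m), Zhaotong (2000 m) and A'ba (3000 m). All animals were about 3 years old, the labels name no treatment or engineered allele, and the study describes its low- and high-altitude animals as unrelated adult females. Each altitude was represented by a single population, so altitude, ancestry and place cannot be told apart. The study's methods cover the 600 m and 3000 m animals and do not state whether the 2000 m libraries were made alongside them.

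Thin air at altitude lowers the oxygen that reaches the blood. The lung answers with constriction of its arteries, the heart works against the higher pressure that follows, and muscle depends on the oxygen that these organs deliver. In cells short of oxygen, hypoxia-inducible factors, which are destroyed when oxygen is plentiful, switch on genes for glycolysis, vessel growth and red cell production. Whether any member belongs to these pathways could not be read, because no gene name stands beside an ID in the files and 0 of 22131 IDs matched the RefSeq table used here. For the same reason the tissue labels could not be checked against marker genes, only the first 2 members of each direction are given by ID, and the others are given by their rank in the score.

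Muscle replicates 1 and 2 at 600 m differed by less than any other replicate pair, with a variance 1.33 times that of random sampling against 8.76 to 65.7 times in the other 26 pairs, and they were counted as 1 sample, leaving 26 samples. Absolute depth was not in the files, and relative depth lay between 0.809 and 1.26 over the libraries. For 3000 m, deviations from the group mean correlated across genes between samples of the same replicate number in different tissues (0.160 to 0.321 over 9 pairs) and less between different numbers (-0.236 to 0.0218 over 18 pairs), so a number at 3000 m is treated below as the same animal in every tissue, although the labels do not say so. The heart library of 600 m replicate 1 stood apart from its group in the down members, as described below. Nothing in the labels says how the replicates of a group were collected or processed, so p-values measure the spread between these samples only.

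Genes set apart at 3000 m were few and most of their differences small. Of the candidates, 249 (2.59%) had their highest mean at 3000 m in all 3 tissues and 614 (6.39%) had their lowest. These counts depended on the scaling and on the animals. They were 378 and 510 of 9896 candidates after median-of-ratios scaling, and 417 and 522 of 10101 after quantile normalization. Without 3000 m number 1, 2 and 3 in all tissues they were 352 and 617, 197 and 910, and 350 and 452. The up score was 0.62 log2 units for the first member, 0.27 for the tenth and 0.18 for the median member. The down score was 7.16 for the first member, 1.31 for the second, 0.77 for the tenth and 0.43 for the median member. The last member and the first gene left out scored 0.126395 and 0.125771 for up, and 0.319542 and 0.318247 for down, so the lists end without a break.

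The same rule was applied around the other populations. Around 600 m it found 2219 genes (23.1% of candidates) highest and 1308 (13.6%) lowest in all tissues, and the gene at rank 50 scored 0.80 and 0.59. Around 2000 m it found 713 (7.43%) highest and 694 (7.23%) lowest, with 0.34 and 0.22 at rank 50. For genes raised in a single population, 3000 m thus had the lowest score at rank 50 of the 3 populations, and for lowered genes it lay between 600 m and 2000 m. Of the down members, 8 were also among the 50 genes of highest up score around 600 m, so that their means fell from 600 m over 2000 m to 3000 m, and 2 up members were among the 50 lowest around 600 m.

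**Figure D1:**
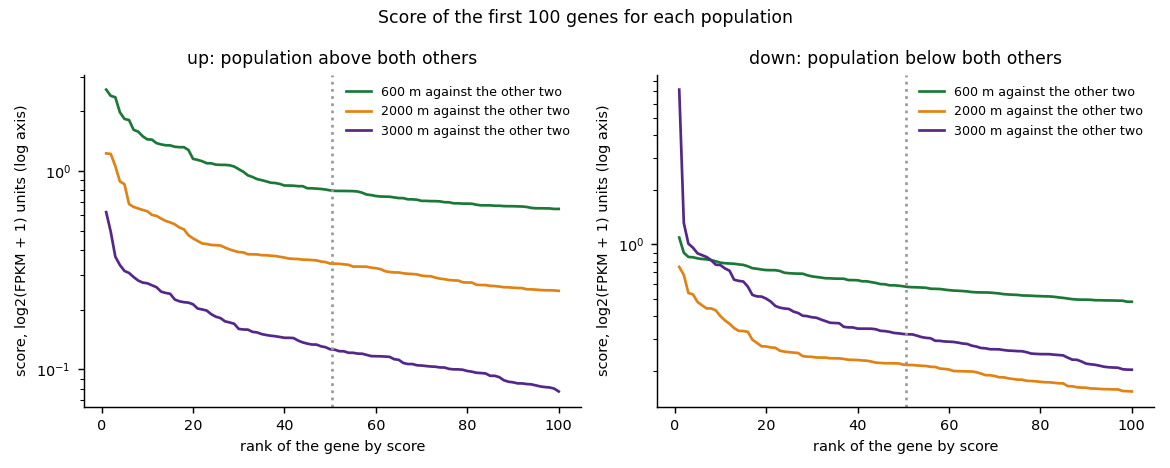
Score (log2(FPKM + 1) units, log axis) of the first 100 genes by rank, for each population against the other populations, with up scores on the left and down scores on the right; the dotted line follows rank 50. The 3000 m curve is the lowest for up, and for down it starts at 7.16 with 1 gene and reaches 0.32 at rank 50.

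The first down member, GOAT_ENSP00000364092, was close to absent at 3000 m and very abundant in nearly all other libraries. In whole tissue, fewer cells of a type and less RNA per cell cannot be told apart, here and in every result that follows. At 3000 m it was at 0, 1.84 and 0 FPKM in heart, at 1.39, 4.996 and 0 in lung and at 0, 1.38 and 0 in muscle. At 2000 m its 9 libraries lay between 1085 and 3453 FPKM. At 600 m it was at 9.92, 5983 and 4723 FPKM in heart (replicates 1, 2 and 3) and at 2.06, 4385 and 3141 in lung, while all 3 muscle libraries lay between 2254 and 3605. The samples therefore fell into a low and a high class with nothing between 9.92 and 1085 FPKM, and the low class held all 9 libraries of 3000 m and also the heart and lung libraries of 600 m replicate 1. The muscle libraries that carry the numbers 1 and 2 at 600 m, which were merged, were in the high class. Because of lung 600 m replicate 1, the 3000 m samples did not lie below all others in lung, while they did in heart and muscle.

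The second down member, GOAT_ENSBTAP00000019081, differed by degree. Its heart level at 3000 m was 3.21, 1.46 and 2.02 FPKM, against 2.17, 9.68 and 33.8 at 600 m and 11.2, 7.63 and 4.03 at 2000 m. In lung it was at 5.23, 3.09 and 2.29 FPKM at 3000 m and between 7.82 and 32.4 in the other libraries. In muscle it was at 0.933, 0.908 and 1.02 FPKM at 3000 m and between 1.41 and 13.6 elsewhere. The groups did not overlap in lung and muscle, and in heart 600 m replicate 1 lay within the 3000 m range. At 600 m replicate 3 was the highest library in each tissue.

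Only the down members ranked 6 and 8 had every 3000 m sample below every other sample in all 3 tissues. The member ranked 6 was at 39.3, 58.8 and 31.4 FPKM in heart at 3000 m against 62.4 to 110 elsewhere, at 98.6, 205 and 95.2 in lung against 214 to 315, and at 27.5, 45.4 and 26.4 in muscle against 52.3 to 114. Replicate 2 was the highest of the 3000 m samples in each tissue and stood just below the others. The member ranked 8 was at 58.4, 81.7 and 56.3 FPKM in heart against 92.3 to 516, at 83.5, 92.9 and 96.8 in lung against 142 to 907, and at 217, 195 and 191 in muscle against 305 to 1248. Its ID carries a suffix whose meaning the files do not state.

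Over the 50 down members, 13 had no overlap between 3000 m and the other samples in heart (3% of all candidates), 14 in lung (2.78%) and 16 in muscle (1.93%). At least 1 tissue was free of overlap for 29 members (7.12% of candidates) and all 3 for 2 members (0.0625%), so 21 members overlapped in every tissue. These counts follow from the choice of members and say nothing further about them. The median tissue value was 0.68 log2 units in heart, 0.63 in lung and 0.63 in muscle, and muscle set the score of 22 members, heart that of 14 and lung that of 14.

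**Figure D2:**
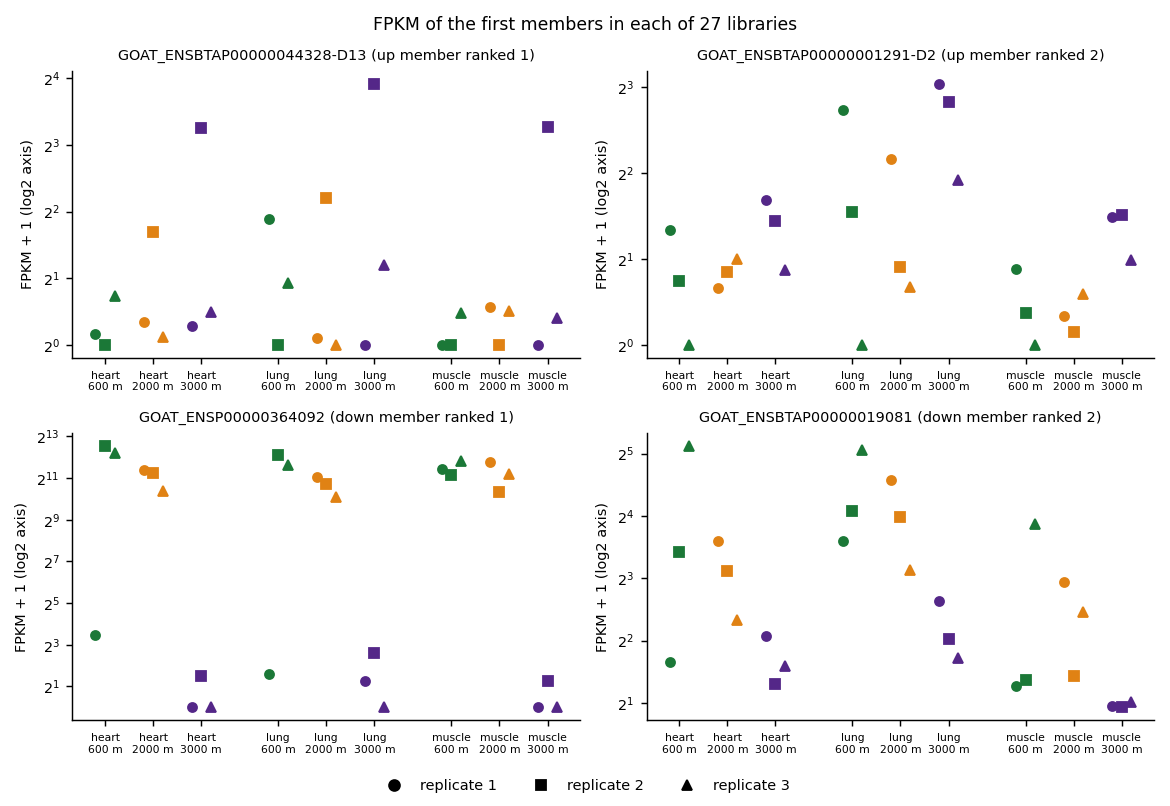
FPKM + 1 (log2 axis) of the first 2 up members and the first 2 down members in each of 27 libraries, grouped by tissue and altitude, with green for 600 m, orange for 2000 m, purple for 3000 m and the marker shape for the replicate number. The first up member is high in 3000 m replicate 2 of each tissue alone, and the first down member is low in the 9 libraries of 3000 m and in heart and lung 600 m replicate 1.

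The low state of the down members was shared with a 600 m heart. Relative to the mean of the 600 m and 2000 m groups of the tissue, the median down member lay at -0.69, -1.10 and -0.998 log2 units in the 3000 m hearts, at -1.004, -1.16 and -1.16 in the lungs and at -0.80, -1.02 and -1.11 in the muscles. Heart 600 m replicate 1 lay at -1.31, below all 3 hearts of 3000 m, while replicates 2 and 3 lay at 0.49 and 1.02. In that heart, 27 of 50 down members were below the 3000 m mean and 14 below the lowest 3000 m sample, while the other 16 samples of 600 m and 2000 m, the lung of replicate 1 among them, had 0 to 10 members below the 3000 m mean of their tissue.

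Lung 600 m replicate 1 lay at -0.40, against 0.45 and 0.49 in replicates 2 and 3, and had 9 members below the 3000 m mean. The merged muscle sample lay at -0.10 and muscle replicate 3 at 0.48. At 600 m, replicate number 1 was the lowest of its group in heart and in lung for 37 of 50 down members (74%), against 15 of 50 up members (30%) and 37.1% of candidates. Its median deviation from the group mean in heart was -1.36 log2 units over the down members and -0.14 over the candidates, and in lung -0.49 and -0.06. The low level of this animal number was thus seen over candidates as a whole and was larger for the down members. What set this library apart was not tested, and leaving it out of heart kept 49 of 50 down members.

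The 2000 m samples were close together. They lay at 0.03, -0.13 and -0.15 log2 units in heart, at -0.20, -0.26 and -0.35 in lung and at -0.10, -0.53 and -0.28 in muscle, so every 3000 m sample was below every 2000 m sample of its tissue for the median down member. In heart and lung the 600 m samples were farther apart than those of 2000 m.

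**Figure D3:**
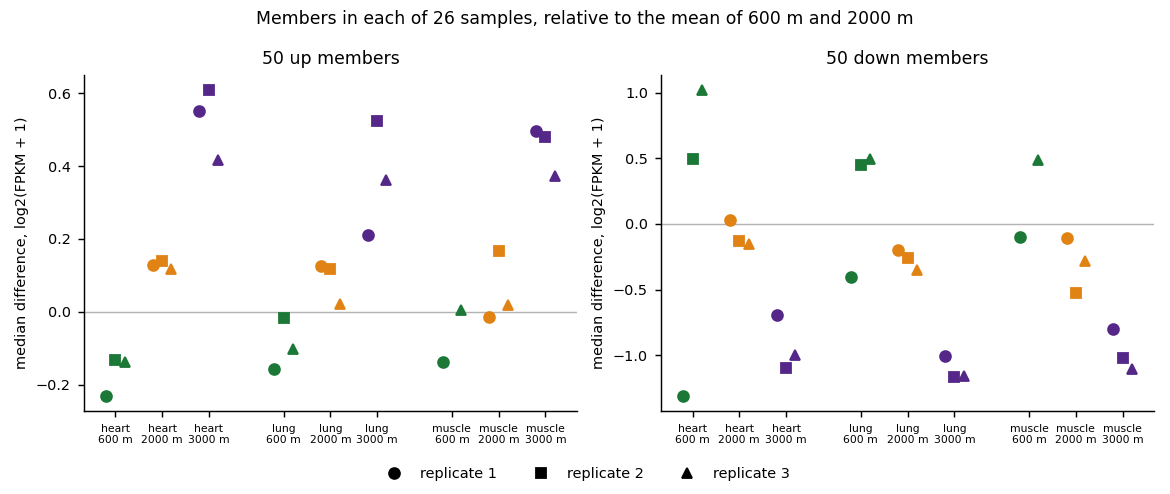
Median over the 50 up members (left) and the 50 down members (right) of log2(FPKM + 1) minus the mean of the 600 m and 2000 m groups of the tissue, in each of 26 samples, with colour for altitude (green 600 m, orange 2000 m, purple 3000 m) and marker shape for the replicate number. The 3000 m samples lie at 0.21 to 0.61 for up and at -1.16 to -0.69 for down, and heart 600 m replicate 1 lies at -1.31 for down.

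The first up member, GOAT_ENSBTAP00000044328-D13, rested on 1 animal number. At 3000 m it was at 0.213, 8.55 and 0.406 FPKM in heart, at 0, 14.1 and 1.30 in lung and at 0, 8.60 and 0.322 in muscle, for replicates 1, 2 and 3. In the other libraries it was at 0 to 3.61 FPKM, the highest being lung 2000 m replicate 2. Replicates 1 and 3 at 3000 m thus lay within the range of the other altitudes in each tissue. Its score was 1.15 without 3000 m replicate 1, 1.02 without replicate 3 and -0.34 without replicate 2. Another 2 genes in the files carry the same ID stem, and 1 of them lay at 0 to 2.05 FPKM and was not raised in 3000 m replicate 2, while the other was at 0 in all libraries but 1. Its level is uncertain where the counting divided reads among near-identical copies.

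The second up member, GOAT_ENSBTAP00000001291-D2, was low throughout. Its FPKM at 3000 m was 2.21, 1.72 and 0.824 for heart, 7.20, 6.07 and 2.77 for lung and 1.80, 1.86 and 0.978 for muscle. Hearts of 600 m gave 1.52, 0.681 and 0, lungs 5.65, 1.93 and 0 and muscles 0.840, 0.299 and 0, and the 2000 m libraries lay between 0.115 and 3.46. Only in muscle did the 3000 m samples lie above all others, and 600 m replicate 3 was listed at 0 in each tissue.

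Some other up members gave tighter groups. The up member ranked 3 was at 82.5, 59.5 and 51.1 FPKM in heart at 3000 m against 35.6 to 45.3 elsewhere, and at 16.5, 8.43 and 8.55 in muscle against 5.49 to 7.04. In lung it was at 25.7, 15.1 and 16.3 against 9.47 to 19.6, where the groups overlapped. The member ranked 7 went up in steps with altitude in heart, with 3.42 to 5.001 FPKM at 600 m, 6.64 to 7.11 at 2000 m and 7.94 to 9.96 at 3000 m, and in lung, with 2.25 to 3.13, 3.85 to 4.94 and 5.87 to 7.48. In muscle, which set its score, it was at 0.855 to 1.01 FPKM at 3000 m and reached 0.968 at 2000 m, so the groups overlapped. The member ranked 18 was at 5.98, 5.94 and 5.45 FPKM in heart against 3.13 to 4.74 and at 3.59, 4.46 and 3.56 in lung against 1.95 to 3.21, and in muscle at 4.16, 3.82 and 4.59 against 2.94 to 3.82, where 1 sample of 2000 m and 1 of 3000 m met.

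Over the 50 up members, 15 had no overlap in heart (2.82% of candidates), 3 in lung (0.521%) and 8 in muscle (2.99%). The count was 21 for at least 1 tissue (6.05%) and 0 for all 3 tissues, where it was also 0% of candidates. The members ranked 3, 7, 18, 32 and 41 were free of overlap in exactly 2 tissues. The median tissue value was 0.38 log2 units in heart, 0.23 in lung and 0.32 in muscle, and lung set the score of 25 members. In lung, 3000 m replicate 1 had a median of 0.21 relative to the lower altitudes, close to 0.12 in lung 2000 m replicates 1 and 2, while replicates 2 and 3 had 0.52 and 0.36.

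**Figure D4:**
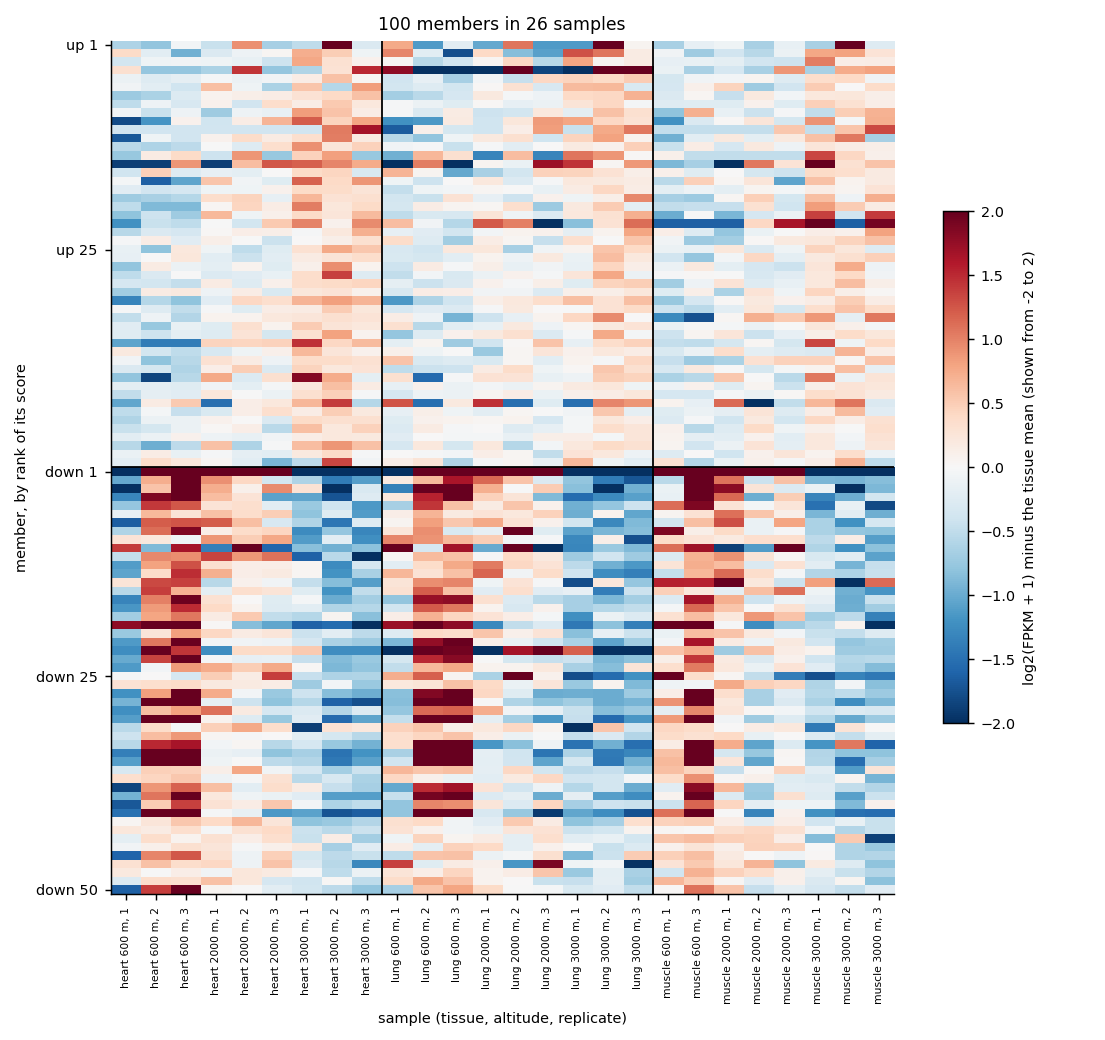
Level of each of the 100 members (rows, up members above the black line, by rank) in each of 26 samples (columns, by tissue, altitude and replicate), as log2(FPKM + 1) minus the mean of the tissue and drawn from -2 (blue) to 2 (red). The 50 up members are mostly pale, and among the down members heart 600 m replicate 1 is blue where replicates 2 and 3 are red.

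Most scores were smaller than the spread between replicates. The score is the smallest of the 3 tissue values, so a member differed by more in its other tissues. The median within-group SD was 0.33 log2 units for up members, 0.73 for down members and 0.25 for candidates. The score exceeded the member's own pooled SD for 6 of 50 up members, with ranks 3, 5, 7, 8, 13 and 18, and for 20 of 50 down members. The median ratio of score to SD was 0.556 for up and 0.768 for down. Down members thus had larger scores and also a larger spread.

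**Figure D5:**
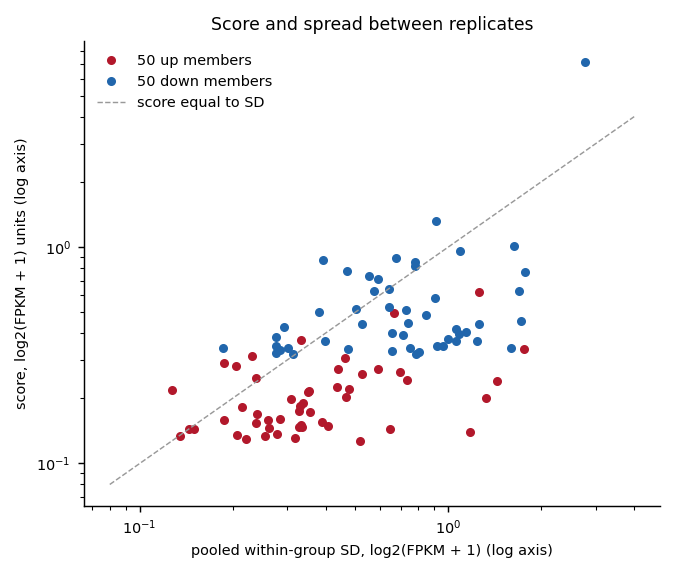
Score of each member against its pooled within-group SD, both in log2(FPKM + 1) units on log axes, for 50 up members (red) and 50 down members (blue); the dashed line marks a score equal to the SD. The line is exceeded by 6 up members and 20 down members.

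Membership depended on which 3000 m animals entered. When all samples of a 3000 m number were left out, 24, 23 and 25 of 50 up members and 38, 32 and 37 of 50 down members were found again without number 1, 2 and 3. The score fell to 0 or below for 3, 9 and 6 of the up members and for 1, 2 and 2 of the down members. The same 3000 m number was highest in all tissues for 17 up members (34%, against 24.2% of candidates) and for 25 down members (50%). For 14 down members (28%) it was number 1, which was highest in all tissues for 3.72% of candidates. These down members were least reduced in that animal number.

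Genes were also chosen without every sample that carries a given number and then examined in the samples left out, with 1 sample a group. At 2000 m, muscle correlated with heart and lung at -0.417 to 0.0790 for the same number and -0.348 to 0.401 for different numbers. The 600 m muscle sample numbered 1 is merged with library 2. Samples left out may therefore share animals with those used for the choice, so the values are descriptions and not an independent test. Of the 50 genes chosen as up without number 1, 8 lay above both other altitudes in all 3 tissues in the samples numbered 1, against 3.04% of candidates. Of those chosen without number 3, 5 did so in the samples numbered 3, against 2.08% of candidates. For down the counts were 11 of 50 without number 1 (4.64% of candidates) and 19 of 50 without number 3 (7.88%). The samples numbered 1 include heart 600 m replicate 1, which was low in the down members. Of the down genes chosen without number 1, 16 lay below both other altitudes in heart, 31 in lung and 33 in muscle. The shares of candidates were 19.7%, 47.8% and 23.97%. Without number 3 the counts were 35, 29 and 32 (38.96%, 30.2% and 43.96% of candidates). Whether that heart library lowered the count of 11 was not tested. In each choice, most chosen genes did not lie beyond both altitudes in all 3 tissues of the samples left out. The median score there was -0.43 for up without number 1 and -0.33 without number 3, against -0.45 and -0.64 over the candidates, and for down it was -0.45 and -0.15 against -0.49 and -0.40. Number 2 could not be used because its 600 m muscle library was merged.

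Against each of the other populations alone, the members stood as follows in limma, a linear model with a spread estimate shared over genes, fitted to all genes of a tissue (adjusted p at most 0.05). Against 600 m, 21 up members were called in heart (7.38% of all genes tested were called higher), 2 in lung (0.73% called higher and 2.84% in either direction) and 1 in muscle (0.772%). Of the down members, 12 were called against 600 m in heart (3.75% called lower), 10 in lung (2.11%) and 7 in muscle (1.31%). Against 2000 m, 0 up members were called in any tissue, where 0% of genes were called higher, and 14, 3 and 12 of them had an unadjusted limma p under 0.05 in heart, lung and muscle, against 14.5%, 5.78% and 8.82% of all genes. The first down member was called against 2000 m in muscle (0.00839% called lower), 0 down members were called in heart (0.00809%) and lung (0%), and 15, 17 and 19 of the 50 had an unadjusted limma p under 0.05, beside the same 14.5%, 5.78% and 8.82% of all genes. The rule used these contrasts, so the counts are descriptions, and the comparisons share the 3000 m samples.

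The contrast of 2000 m with 600 m was not itself used to rank the members, although both means entered the rule. Its estimate does not use the 3000 m samples, but its spread does, since all 3 altitudes were fitted together. When only the libraries of these altitudes were fitted, limma called 75 in place of 712 of all genes in lung, 0 up and 1 down member among them. All 100 members passed the filter of every main fit. The up member ranked 11 was at 0 FPKM in every heart of 600 m and 2000 m. Its heart mean of 0.536 FPKM thus passed only through the 3000 m samples. Fits that leave out a sample filter anew, so such a member can drop out of them. In heart, 8 up members differed and all 8 were higher at 2000 m (limma, 16.3% of 12363 genes were called higher and 22.5% in either direction). In lung 1 up member was higher (2.22% of 13965 genes, 5.1% in either direction) and in muscle 1 (1.93% of 11920 genes, 5.91% in either direction). The share of 8 in 50 was close to that of all genes in heart. The median change over the 50 up members was 0.31, 0.12 and 0.11 log2 units in heart, lung and muscle, against 0.09, -0.11 and -0.17 over the candidates, and 21 members (42%) had a higher mean at 2000 m in all tissues, against 20.7% of candidates.

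The largest of these changes in heart belonged to the up member ranked 36. In heart it was at 0.652, 0.297 and 0.294 FPKM at 600 m, at 3.65, 3.58 and 3.71 at 2000 m and at 8.39, 3.55 and 4.302 at 3000 m. The 2000 m samples lay above those of 600 m by 1.73 log2 units (SE 0.25, limma adjusted p = 0.00371), and those of 3000 m overlapped with 2000 m. In lung and muscle its 2000 m change was 0.35 and 0.27 log2 units and did not pass (limma adjusted p = 0.461 and 0.661).

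The up member ranked 31 was the only up member called in heart and in lung. In heart it was at 0.743, 1.95 and 1.502 FPKM at 600 m, at 2.71, 4.81 and 4.52 at 2000 m and at 5.97, 6.72 and 5.98 at 3000 m. Its lung values were 3.88, 6.05 and 7.21, then 10.7, 11.6 and 12.9, then 15.4, 12.3 and 15.5. Its 2000 m change was 1.07 for heart (SE 0.23, limma adjusted p = 0.0131) and 0.95 for lung (SE 0.21, limma adjusted p = 0.0425), and for muscle it was 0.65 (SE 0.21) with a limma adjusted p of 0.1003. The 600 m samples lay below all others in each tissue.

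Of the down members, 2 were lower at 2000 m than at 600 m in heart (limma, 6.18% of genes called lower), 2 in lung (2.88%) and 4 in muscle (3.98%). In heart, lung and muscle the median change over the 50 was -0.24, -0.35 and -0.54 log2 units, and 22 members (44%) had a lower mean at 2000 m in all tissues, against 30.4% of candidates. The down member ranked 19 was called in all 3 tissues. Its muscle values were 3062, 2978 and 2767 FPKM at 600 m, 403, 172 and 249 at 2000 m and 279, 426 and 43.8 at 3000 m, so that 600 m stood far above and the other altitudes overlapped. Heart at 2000 m differed from 600 m by -2.99 log2 units with an SE of 0.33 (limma adjusted p = 0.00259). The difference was -2.58 with an SE of 0.28 for lung (limma adjusted p = 0.0114), and for muscle -3.48 with an SE of 0.79 (limma adjusted p = 0.0397).

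The first 2 members of each direction were not called between 2000 m and 600 m in any tissue. For the first down member the change was 1.63 for heart (SE 1.97, limma adjusted p = 0.581) and 2.18 for lung (SE 2.29, limma adjusted p = 0.558), and it turned to -1.35 and -1.24 without replicate 1 of 600 m. For muscle it was -0.46 (SE 0.48, limma adjusted p = 0.557). The wide errors in heart and lung came with replicate 1 lying in the low class.

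In heart and lung the counts of the down members turned on 600 m replicate 1. Without its heart library, 20 down members were called in heart, all lower at 2000 m (10.9% of all genes), and the median change was -0.85 log2 units. Without its lung library, 18 were called in lung, all lower (8.24% of all genes), with a median of -0.70. Of these members 14 were called in both tissues. Up members called in the same fits, all higher at 2000 m, numbered 8 in heart (15.5% of all genes called higher) and 1 in lung (5.27%). Muscle gives no like comparison, because its replicate 1 is merged with replicate 2 and those libraries lay in the high class of the first down member. Without the merged sample a lone 600 m sample remained, which was assumed to vary like the 2000 m and 3000 m groups, and 10 down members were called (5.86% of all genes), with a median of -0.88.

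The up member ranked 33 was the only member called for a 2000 m change that differed between tissues in the fit without a block (limma interaction over the 9 groups, adjusted p = 0.0454, against 4.31% of 11244 genes called). Its muscle values were 2.13, 2.48 and 1.38 FPKM at 600 m, 7.19, 12.1 and 10.5 at 2000 m and 13.6, 6.08 and 15.5 at 3000 m. Muscle changed by 1.93 log2 units (SE 0.37) with a limma adjusted p of 0.0289, and heart by 0.50 (SE 0.15) with 0.0382. For lung the value was 0.13 (SE 0.32), with 0.817 by limma. Over the 32 alternatives the adjusted p of the interaction lay between 0.0192 and 0.238 in limma, and 12 passed. Among down members 0 were called by limma, and 1 had an unadjusted p under 0.05, as did 5 up members and 24% of all genes tested. With the replicate number as a block across tissues, limma also called the down members ranked 9, 26 and 38 (adjusted p = 0.0174, 0.0251 and 0.0205). Calls rose over all genes too, with 1124 of 11244 under the block against 485 without it. That block joins muscle samples of 2000 m whose numbers did not pair with heart and lung.

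The members also differed between tissues, a contrast the rule used only through its limit on the tissue range. Down members were mostly highest in lung, with 39 of 50 (78%) against 65.2% of candidates, while 7 were highest in heart and 4 in muscle. Up members were highest in lung for 24 (48%), in heart for 21 (42%, against 20.3% of candidates) and in muscle for 5. Between lung and muscle, 42 down members differed, 35 of them higher in lung (limma, 83.8% of 11244 genes called, 65.7% higher), with a median difference of 1.996 log2 units against 0.69 over all genes tested. For up members 40 differed, 33 higher in lung, with a median of 0.86.

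Between heart and lung, 37 down members differed, 32 of them lower in heart (limma, 81.3% of genes called, 60.7% lower), with a median of -1.38 against -0.52 over all genes. For up members 35 differed, 17 higher and 18 lower in heart, with a median of -0.12. Between heart and muscle, 31 up members differed, 28 higher in heart (limma, 61.8% called, 44.8% higher), and 19 down members, 15 higher in heart, with medians of 0.45 and 0.50 against 0.24 over all genes. With the replicate number as a block, 32 down members were called between heart and muscle (7238 of 11244 genes called). The numbers did not pair muscle at 2000 m. Without heart 600 m replicate 1 the count of down members was 31 (7016 of 11256 genes called).

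Directions of the up members in the contrasts with lung depended on the scaling. Median-of-ratios scaling brought the median of all genes from 0.69 to -0.05 between lung and muscle and from -0.52 to 0.00 between heart and lung. Under it 19 of 33 called up members were higher in lung than in muscle, beside 4226 of 8901 called among all 11244 genes. Of the up members called between heart and lung, 26 of 36 were higher in heart, beside 4261 of 8411 called genes. Quantile normalization gave 13 of 31 (3986 of 9007 called genes) and 30 of 39 (4546 of 8553 called genes). For down members these directions held, with 25 of 35 and 30 of 38 higher in lung than in muscle, and 9 of 31 and 6 of 29 higher in heart than in lung. Between heart and muscle, 22 of 26 and 20 of 25 called up members were higher in heart, so that direction held. Over all genes, 3490 of 6970 and 3183 of 6575 called between these tissues were higher in heart. For down members the counts there were 8 of 15 and 6 of 10, against 15 of 19 in the main fit, so the direction was no longer clear.

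Up members were weakly expressed and down members more strongly. The mean FPKM over tissues had a median of 6.65 for up members (1.12 to 591), 19.8 for down members (3.53 to 2516) and 10.04 for candidates. Under 5 FPKM lay 21 up members (42%) and 3 down members (6%), against 25.4% of candidates, and a difference on the log2(FPKM + 1) scale understates the fold change of such genes. An ID with a suffix was carried by 4 up members (8%) and 6 down members (12%), against 1.97% of candidates, and 3 up members shared the ID stem with another gene (6%, against 0.927%). The prefix GOAT_ENSBTAP was borne by 28 members of each direction (56%) and by 50.6% of candidates.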

How the data were processed

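The authors aligned reads of strand-specific (dUTP) TruSeq libraries with TopHat2 2.0.11 and estimated FPKM with Cufflinks 2.2.1, and deposited log2(FPKM + 1) values for 22131 gene IDs in 27 libraries. The handling of the 2000 m libraries is not given in the sources used here beyond those tools, and no coordinates are reported.

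The deposited log2 values were returned to FPKM, muscle 600 m replicates 1 and 2 were averaged, and group means were taken on the log2 scale with a pseudocount of 1. Relative depth came from the FPKM value of 1 read (genes below 0.15 FPKM, 308 of 351 library pairs kept, SD 0.0532 log2 units). The members, and every comparison made of them, were chosen with earlier results of these data known. Within a tissue, limma 3.58.1 (R 4.3.3, eBayes with a mean-variance trend, two-sided, Benjamini-Hochberg over all genes with a mean above 0.5 FPKM in the tissue, threshold 0.05) compared altitudes over the samples of all 3 altitudes; FPKM are not counts, so no count model was used. Tissues and the interaction were fitted over the 9 groups with 11244 genes. Absolute depth is unknown, so no counting interval is given. The fits were tested on simulated data with known changes. Python 3.11.15 with pandas 2.3.3 and NumPy 2.4.6 made the tables.

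The genes given by ID are the first 2 of each direction, and others are given by rank. The planned gene lists and tissue markers could not be used because no table paired the IDs with names. Alternatives changed the scaling, the pseudocount, the filter, the limit on tissue range, the merging, the replicate block and each sample in turn.

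Replicate numbers were checked through the correlation of deviations from the group means. Heart and lung samples of the same number correlated at 0.160 to 0.520 (9 pairs) while for different numbers the range was -0.448 to 0.178, and heart was therefore taken as paired with lung. Muscle samples correlated with heart and lung samples of the same number at 0.168 to 0.321 at 3000 m and at 0.281 to 0.326 at 600 m, where muscle has 2 samples, but at -0.417 to 0.0790 at 2000 m, so the numbers were not taken to pair muscle there and a block across tissues joins samples that the data do not pair. With 2 muscle samples at 600 m, their deviations mirror each other, so these correlations say little about pairing. The first down member was at 9.92 and 2.06 FPKM in heart and lung number 1 of 600 m but at 2733.5 in muscle number 1, so pairing of muscle is uncertain there too. Between 600 m and 2000 m within a tissue the same numbers correlated at -0.178 to 0.0258 and share only a number.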

Additional observations from a re-analysis of the deposited data

Results flagged for a closer look

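The up member ranked 33 is set out because its 2000 m vs 600 m change differed between tissues in the unblocked limma interaction over the 9 groups (adjusted p = 0.0454), with 1.93 log2 units in muscle, 0.50 in heart and 0.13 in lung, and a higher value in each 2000 m sample than in each 600 m sample in muscle and heart. The adjusted p was 0.0657 after quantile normalization, 0.0591 without the filter on low FPKM, 0.0498 with the replicate number as a block and 0.238 without muscle 600 m replicate 3, so the call holds under 12 of 32 alternatives. No group of this design had 4 or more samples, so outlying samples were not tested for.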

How the results depend on the processing

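Limits come first. Most scores of the members lie near or below the replicate spread, each altitude is 1 population, and muscle at 600 m has 2 samples. The contrast of 3000 m against 2000 m called almost no gene, so the order of members beyond the first of the down list is loose. Depth limits the genes under 5 FPKM most, among them 21 up members. The causes of the changes below were not tested. Alternatives that leave out all samples of a 3000 m number, that admit goat_GLEAN_ IDs, or that choose genes without a number were added after the data had been seen; with those IDs admitted, 41 up and 47 down members stayed.

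Of the 50 up members, 33 were found again after median-of-ratios scaling, 27 after quantile normalization and 28 with no limit on the tissue range. Leaving out samples gave 23 to 49 for up and 32 to 49 for down, with 33 and 32 up members without lung 3000 m replicates 2 and 3, 24, 23 and 25 up members without 3000 m replicates 1, 2 and 3 in all tissues and 32 down members without 3000 m replicate 2 in all tissues. The median score lay between 0.12 and 0.21 for up and between 0.38 and 0.48 for down.

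For 2000 m vs 600 m, limma called these numbers of members in place of 8, 1 and 1 up and 2, 2 and 4 down in heart, lung and muscle. Over all genes the main fits called 2781, 712 and 704 in either direction, and brackets below give such calls. Median-of-ratios scaling gave 2 up in lung (885) and 1 down in muscle (513). Quantile normalization gave 4 up and 1 down in heart (2468), 1 down in lung (633) and 2 down in muscle (593). Without a filter there were 0 up and 1 down in lung (233) and 0 up and 0 down in muscle (85). Only the compared groups gave 1 down in heart (2073), 0 up and 1 down in lung (75) and 1 down in muscle (378). Every library as its own sample gave 2 up in muscle (1552). Leaving out a sample gave 4 to 8 up and 1 to 20 down in heart, 0 to 1 up and 0 to 18 down in lung and 0 to 1 up and 0 to 10 down in muscle. The largest counts were those without 600 m replicate 1 (in muscle the merged sample, which leaves a lone 600 m sample assumed to vary like the other groups), where 2 of 20, 2 of 18 and 3 of 10 were also called with all samples. In heart, leaving out 2000 m replicate 1 gave 4 up members, and leaving out 2000 m replicate 2 or 600 m replicate 3 gave 5. The down count in heart was 1 without 2000 m replicate 1 or 3 or 600 m replicate 2 or 3. Over all genes, 1487, 1427 and 1626 were called in heart without 2000 m replicates 1, 2 and 3. Without 600 m replicates 2 and 3 they were 1808 and 1541. In lung the up call was lost without any 1 of 2000 m replicates 1, 2 and 3, 3000 m replicates 1 and 2 and 600 m replicates 2 and 3, and the down count was 1 without any sample but 600 m replicates 1 and 2 (0 without the latter). Lung fits without a 2000 m sample, or without 600 m replicate 2 or 3, called only 5 to 14 of all genes. Without 3000 m replicates 1 and 2 they called 353 and 374. In muscle the up call was lost without any 2000 m sample. There, 0 down members were called on leaving out 2000 m replicate 1 or 2, and 1 on leaving out 2000 m replicate 3 or 3000 m replicate 1. Leaving out 3000 m replicate 3 gave 2. Muscle fits without 2000 m replicates 1, 2 and 3 called 117, 72 and 70 of all genes. Those without 3000 m replicates 1 and 3 called 372 and 408.

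The replicate block within a tissue, where the numbers do not pair the altitudes, gave 0 up and 1 down in lung and 1 down in muscle. Over all genes that block called 15 in lung and 482 in muscle. Across tissues, the replicate block takes each number at an altitude as 1 animal, which the 2000 m muscle samples do not bear out and which is uncertain for 600 m muscle. That block gave 32 down members between heart and muscle in place of 19 and 3 down members with a tissue interaction in place of 0. Over all genes it called 7238 in place of 6949 between heart and muscle, and 1124 in place of 485 for the interaction. Across tissues it changed no other count of members by over 1.5 times. Between heart and muscle, the down count was 10 after quantile normalization and 12 to 31 (up 29 to 34) on leaving out a sample, with 12 without the merged 600 m muscle sample. Between heart and lung it was 35 to 39 (up 34 to 36), and between lung and muscle 39 to 44 (up 38 to 42).

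The tissue interaction was called for 2 up members after median-of-ratios scaling and with a pseudocount of 0.1, for 0 up members without a filter, for 1 down member with every library as its own sample, and for 0 to 2 up and 0 to 1 down members on leaving out a sample.

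The uncalled 2000 m vs 600 m changes of the genes given by ID were unstable in sign for 11 of 12 gene and tissue combinations on leaving out a sample. For GOAT_ENSBTAP00000001291-D2 the change became -0.0666 in heart after quantile normalization, 0.35 in lung with a pseudocount of 0.1 and -0.0549 in muscle with every library as its own sample, and on leaving out a sample it ran from -0.21 to 0.46 in heart, -0.89 to 0.47 in lung and -0.29 to 0.36 in muscle. For GOAT_ENSBTAP00000019081 it became 0.11 in muscle with every library as its own sample, and ran from -1.26 to 0.47, -0.68 to 0.0646 and -1.59 to 0.96. For GOAT_ENSBTAP00000044328-D13 it became -0.31 in muscle with the replicate block, and ran from -0.0655 to 0.72, -0.89 to 0.31 and -0.13 to 0.36. For GOAT_ENSP00000364092 it ran from -1.35 to 3.20 in heart and -1.24 to 4.01 in lung.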
